A study of Mus musculus with 15 samples.

Results

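Interferon-gamma (IFN-γ) induced GTPases of the guanylate-binding protein (GBP) family and the immunity-related GTPase (IRG) family were followed in tumor-associated macrophages (TAMs). The genes were taken by symbol from an expression table of 55335 genes: 10 members, of which 6 were GBPs (Gbp2, Gbp3, Gbp4, Gbp5, Gbp7 and Gbp9) and 4 were IRGs (Irgm1, Irgm2, Igtp and Iigp1), each with 1 row. TAMs came from orthotopic HCC in C57BL/6 mice, grown from mouse hepatoma Hepa1-6 cells placed in the liver, and were sorted by FACS as CD11b and F4/80 positive cells before RNA-seq. The 15 samples formed 3 groups of 5: TAMs of tumors with control HCC cells, of tumors whose HCC cells overexpressed miR-144, and of tumors whose HCC cells overexpressed miR-451a. The lentiviral overexpression was made in the tumor cells and not in the macrophages. The miRNA groups thus describe host macrophages beside an altered tumor, and the control group those beside a control tumor. All mice carried the same cell line, and no age or sex was given for them. Nothing in the labels said that the 5 samples of a group came from separate mice, and the legend that describes this sequencing gives a smaller n than the table has samples per group. Samples of a group may therefore share a mouse, and every p-value measures only the spread between these samples, which may be technical.

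GBPs and IRGs are dynamin-like GTPases that macrophages make in large amounts after IFN-γ. IFN-γ binds its receptor, JAK kinases signal to the nucleus, and gamma-activated sites (GAS) in the promoters of these genes receive that signal, while IRF factors and type I interferon act through the interferon-stimulated response element (ISRE). The proteins assemble on vacuoles that hold bacteria or parasites, open them, and feed inflammasomes and autophagy, and in tumors their transcripts are widely used as a readout of interferon acting on macrophages.

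The start regions of the members are shown so that letters like those of the 2 interferon elements can be read in them. RefSeq (GRCm38.p6) gave a promoter window of 300 bases, 250 before and 50 after the annotated start, for 7 of the 10 members: Gbp2, Gbp3 (2 starts), Gbp5, Gbp7, Irgm1, Irgm2 and Igtp. Gbp4, Gbp9 and Iigp1 were not matched. Capitals mark matches, on either strand, to the GAS letters TTCNNNGAA or to the ISRE core, which is GAAA, then 2 bases of any kind, then GAAA (TTTC, 2 bases, TTTC on the other strand). Gbp2, whose change was not called in these data, Gbp7, which has both kinds of match, and the neighbours Irgm2 and Igtp read as follows, all on the plus strand, at chr3:142620413-142620712, chr3:142530086-142530385, chr11:58214727-58215026 and chr11:58199306-58199605 in that order.
Gbp2: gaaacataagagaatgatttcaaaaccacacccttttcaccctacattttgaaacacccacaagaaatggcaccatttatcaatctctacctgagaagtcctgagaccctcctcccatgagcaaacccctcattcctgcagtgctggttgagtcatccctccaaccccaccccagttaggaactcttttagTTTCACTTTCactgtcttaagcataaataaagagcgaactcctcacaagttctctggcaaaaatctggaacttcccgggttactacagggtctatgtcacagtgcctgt
Gbp7: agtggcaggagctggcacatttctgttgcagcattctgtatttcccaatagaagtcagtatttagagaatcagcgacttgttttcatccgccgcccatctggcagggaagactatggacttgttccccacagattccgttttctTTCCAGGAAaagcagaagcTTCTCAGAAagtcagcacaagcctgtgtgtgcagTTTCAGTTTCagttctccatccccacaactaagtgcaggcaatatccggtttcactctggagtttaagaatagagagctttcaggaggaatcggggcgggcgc
Irgm2: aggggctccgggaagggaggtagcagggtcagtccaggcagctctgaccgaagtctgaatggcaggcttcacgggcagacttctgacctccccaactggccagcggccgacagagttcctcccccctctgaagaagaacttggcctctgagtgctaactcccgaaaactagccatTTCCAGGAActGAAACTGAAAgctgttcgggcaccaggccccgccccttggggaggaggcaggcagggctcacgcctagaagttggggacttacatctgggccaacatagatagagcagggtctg
Igtp: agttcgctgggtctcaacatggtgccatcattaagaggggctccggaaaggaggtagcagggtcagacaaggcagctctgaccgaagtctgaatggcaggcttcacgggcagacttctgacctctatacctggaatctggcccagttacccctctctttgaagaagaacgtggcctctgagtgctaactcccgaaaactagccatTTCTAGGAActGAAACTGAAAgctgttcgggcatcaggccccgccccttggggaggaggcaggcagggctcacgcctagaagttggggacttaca
An ISRE match was present in all 7 members whose windows were used (in 1 of the 2 Gbp3 windows), against 3.44% of the 32851 promoters of this length in the table. A GAS match was present in Gbp5 (2), Gbp7 (2), Irgm2 (1) and Igtp (1), so 4 of the 7 held both kinds, against 8.3% of all promoters with GAS and 0.454% with both. The windows of Igtp and Irgm2 shared an unbroken run of 61 bases, and each had its GAS and ISRE matches side by side, 45 bases before the start in Igtp and 75 in Irgm2 at the first GAS base. Gbp2, Gbp3 and Irgm1 had ISRE matches without a GAS match in these windows. A match is a description of letters and not of a bound factor.

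**Figure D1:**
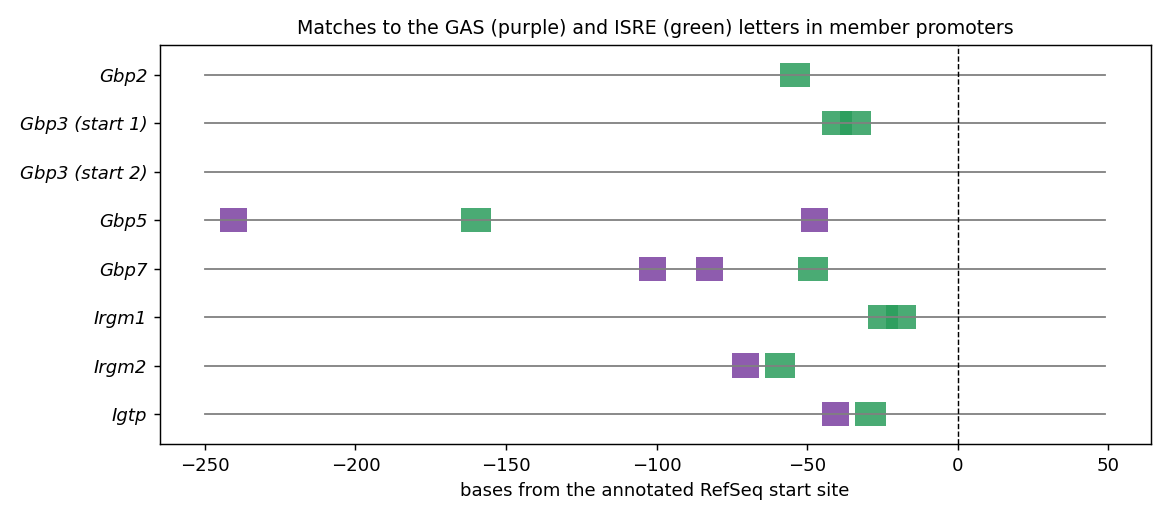
Positions of GAS (purple) and ISRE (green) matches in the RefSeq windows, with the horizontal axis in bases from the annotated start and 1 line per start site. All lines except the second Gbp3 start carry a green box, and Gbp5, Gbp7, Irgm2 and Igtp also carry purple boxes.

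Of the 10 members, 9 were higher in the TAMs of both miRNA groups than in control TAMs in every sample, and Gbp2 was the exception. Groups did not overlap in this direction for 37.9% (miR-144) and 38.8% (miR-451a) of all genes tested, and for 19% and 19.9% of all genes above 0. The rises of mean FPKM ran from 1.63-fold (Irgm1) to 6.28-fold (Iigp1) with miR-144 and from 1.43-fold (Irgm1) to 6.54-fold (Iigp1) with miR-451a. Of the 9 members that passed a mean of 1 FPKM over the 15 samples, 8 rose with miR-144 (limma, adjusted p under 0.05), where 47.1% of the 11419 genes tested were called higher and 67.2% were called in either direction. With miR-451a the same count was 8 of 9, where 48.1% of all genes were called higher and 68.3% in either direction. These 9 members had a median log2 fold change of 1.17 (miR-144) and 1.28 (miR-451a), beside medians of 0.13 and 0.14 over all genes tested. Iigp1 passed the filter only through the miRNA groups (control mean 0.431 FPKM), so its place in these counts and medians is not independent of its rise. Of the genes called, 70.1% (miR-144) and 70.3% (miR-451a) were higher, against 50.01% and 49.6% after median centring of the samples, 52.3% and 52.3% after quantile normalization and 76.5% and 77.3% after rescaling to TPM. The members called were all higher under each of these, 8, 8 and 9 of 9 in both comparisons. Gbp4 was under the filter and was read from a fit over the 29540 genes above 0, where it rose in both comparisons and where 23.1% (miR-144) and 24.5% (miR-451a) of genes were called higher. Both comparisons used the same 5 control samples, so they are not independent of each other. In bulk RNA a higher or lower level cannot be told apart from more or fewer cells of the type that makes it. All fold changes on the log2 scale are of FPKM + 1, which understates the change of low genes such as Gbp4.

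**Figure D2:**
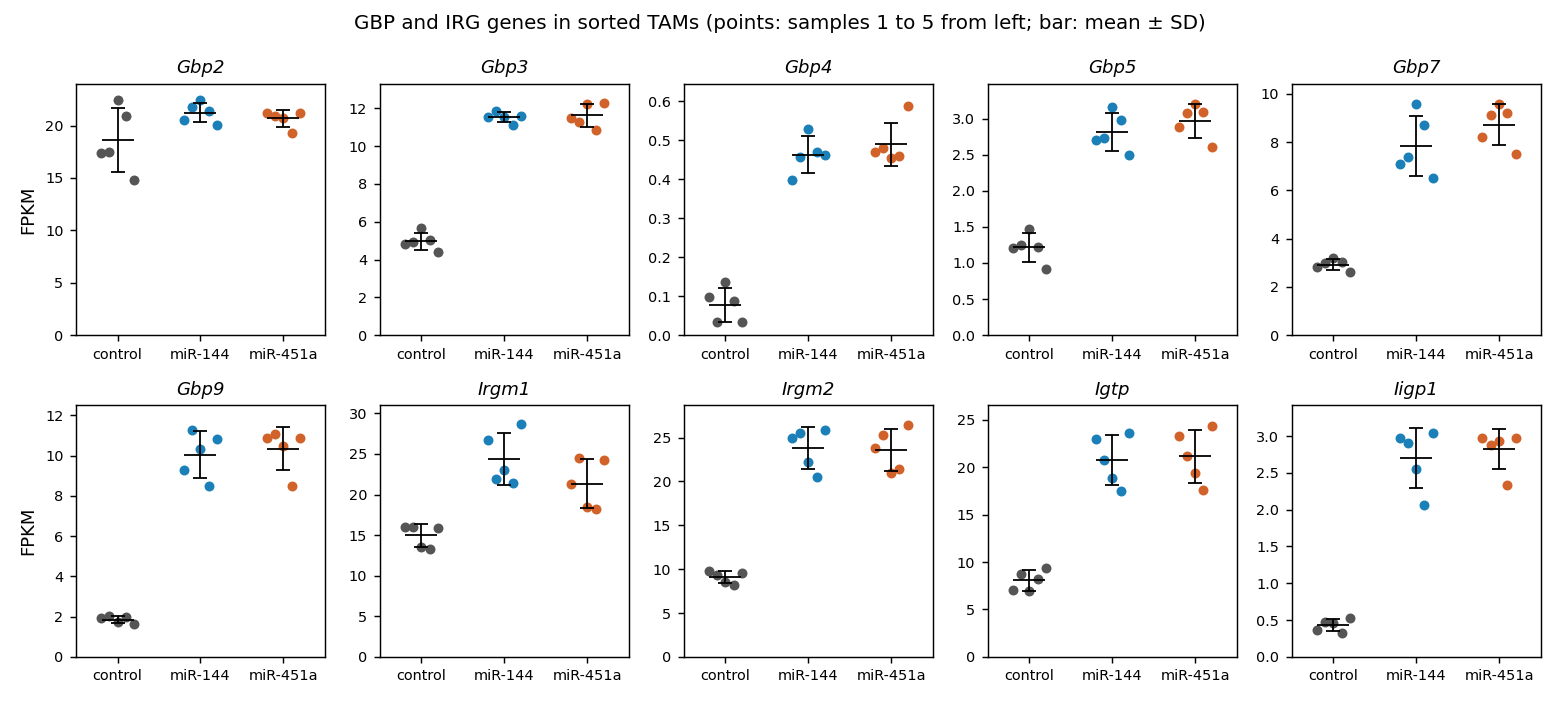
FPKM of the 10 members in each of the 15 samples (points, samples 1 to 5 from left in each group; bars give the group mean ± SD, vertical axes in FPKM from 0). For every gene except Gbp2 all points of the miR-144 and miR-451a groups lie above all control points.

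Among the GBPs of chromosome 3, Gbp2, a GBP that coats and breaks pathogen vacuoles, was the highest member in control TAMs. Its control samples stood at 17.4, 17.5, 22.5, 20.95 and 14.8 FPKM, its miR-144 samples at 20.5, 21.7, 22.4, 21.3 and 20.1 FPKM and its miR-451a samples at 21.2, 20.9, 20.8, 19.3 and 21.2 FPKM. The control samples spread over the levels of both miRNA groups, with control samples 3 and 4 as high as the miRNA groups and control sample 5 lowest of all 15. The log2 differences were 0.19 (SE 0.08, limma adjusted p = 0.0505) with miR-144 and 0.16 (SE 0.08, adjusted p = 0.105) with miR-451a, neither called. With miR-144 the adjusted p lay at the threshold, and it crossed it with the sample number as a replicate block (0.0473), with a filter at 5 FPKM (0.0476) and after rescaling to TPM (0.0121). After rescaling to TPM it crossed with miR-451a too (0.0203). Without control sample 3 the adjusted p was 0.00547 (miR-144) and 0.0129 (miR-451a), and without control sample 4 it was 0.0224 and 0.0465.

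Gbp3, which joins other GBPs on pathogen vacuoles, measured 4.81, 4.94, 5.65, 5.03 and 4.38 FPKM in the 5 control samples, 11.6, 11.9, 11.5, 11.1 and 11.6 with miR-144 and 11.5, 11.3, 12.2, 10.9 and 12.3 with miR-451a. The highest control lay far below the lowest sample of either miRNA group, and the spread within each group was small. The log2 rise was 1.07 (SE 0.05, adjusted p = 4.40e-11) and 1.08 (SE 0.05, adjusted p = 3.73e-11).

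Gbp5, which promotes assembly of the NLRP3 inflammasome, measured 1.21, 1.25, 1.47, 1.22 and 0.919 FPKM in control TAMs, 2.71, 2.74, 3.16, 2.99 and 2.49 with miR-144 and 2.89, 3.08, 3.20, 3.09 and 2.60 with miR-451a. Each miRNA sample was above each control, and sample 5 was the lowest and sample 3 the highest of its group in all 3 groups. The rise of the mean was 2.32-fold and 2.45-fold (log2 0.79 and 0.85, SE 0.07 in both, adjusted p = 5.96e-08 and 2.50e-08).

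Gbp7, which brings oxidase and autophagy proteins to vacuoles, measured 2.81, 2.99, 3.19, 3.01 and 2.60 FPKM in control TAMs, 7.11, 7.38, 9.57, 8.69 and 6.52 with miR-144 and 8.21, 9.13, 9.58, 9.20 and 7.496 with miR-451a. The order of samples within the groups was like that of Gbp5, again with sample 3 highest and sample 5 lowest everywhere. The mean rose 2.69-fold with miR-144 and 2.99-fold with miR-451a (log2 1.17 and 1.31, SE 0.09 in both, adjusted p = 1.25e-08 and 3.11e-09). On the log2 scale the difference between the miRNA groups, 0.14, had a 95% interval of -0.04 to 0.33.

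On chromosome 5, Gbp9 gave the largest log2 rise of all members. It measured 1.91, 2.01, 1.74, 1.96 and 1.61 FPKM in control TAMs, 9.28, 11.3, 10.3, 8.49 and 10.8 with miR-144 and 10.9, 11.1, 10.48, 8.501 and 10.9 with miR-451a. Sample 4 was the lowest in both miRNA groups, and neither miRNA group overlapped with control. The mean rose 5.44-fold and 5.60-fold (log2 1.95 and 1.99, SE 0.08 in both, adjusted p = 9.49e-12 and 6.96e-12), a larger log2 rise than that of 99.2% of the genes tested in each comparison.

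Gbp4 was the lowest member, at 0.0969, 0.0342, 0.136, 0.0887 and 0.0325 FPKM in control TAMs, 0.397, 0.457, 0.530, 0.469 and 0.462 with miR-144 and 0.469, 0.479, 0.455, 0.459 and 0.587 with miR-451a. These control values correspond to roughly 3.54 to 14.9 fragments a sample, by an approximate depth read from the steps of low values, so the 5.96-fold and 6.30-fold differences of the means rest on few control reads. All miRNA samples were above all controls (log2 0.44 and 0.47, SE 0.04 in both, adjusted p = 1.44e-07 and 7.29e-08 in the fit over 29540 genes).

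Among the IRGs, Irgm1, a regulatory IRG known for control of mycobacteria and for its link to autophagy, changed least. It measured 16.05, 16.03, 13.6, 13.3 and 15.9 FPKM in control TAMs, 26.7, 21.9, 23.0, 21.5 and 28.7 with miR-144 and 21.3, 24.5, 18.5, 18.2 and 24.2 with miR-451a. No miRNA sample was below a control sample, and samples 3 and 4 of the miR-451a group came nearest to the controls. The log2 rise was 0.66 (SE 0.10, adjusted p = 3.09e-05) and 0.48 (SE 0.10, adjusted p = 0.000591).

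Irgm2, a regulatory IRG of the Golgi, measured 9.73, 9.34, 8.57, 8.18 and 9.59 FPKM in control TAMs, 25.0, 25.5, 22.2, 20.5 and 25.9 with miR-144 and 23.8, 25.3, 20.96, 21.5 and 26.4 with miR-451a. Every miRNA sample was above every control, and samples 3 and 4 were the lower ones of each group. The mean rose 2.62-fold and 2.60-fold (log2 1.30 and 1.28, SE 0.08 in both, adjusted p = 8.16e-10 and 8.54e-10).

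Igtp, also called Irgm3, a regulatory IRG of the endoplasmic reticulum that holds effector IRGs inactive, measured 7.06, 8.75, 6.91, 8.26 and 9.40 FPKM in control TAMs, 23.0, 20.8, 18.8, 17.5 and 23.7 with miR-144 and 23.3, 21.2, 19.4, 17.6 and 24.4 with miR-451a. Sample 5 was the highest of its group in all 3 groups, and the groups did not overlap with control. The mean rose 2.57-fold and 2.62-fold (log2 1.26 and 1.29, SE 0.10 in both, adjusted p = 4.50e-08 and 3.34e-08).

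Iigp1, also called Irga6, an effector IRG that loads onto parasite vacuoles, measured 0.369, 0.475, 0.464, 0.319 and 0.528 FPKM in control TAMs, 2.97, 2.90, 2.55, 2.06 and 3.04 with miR-144 and 2.97, 2.88, 2.94, 2.34 and 2.98 with miR-451a. The lowest sample of the miRNA groups, sample 4 in both, was still above the highest control. The mean rose 6.28-fold and 6.54-fold (log2 1.37 and 1.42, SE 0.08 in both, adjusted p = 5.19e-10 and 3.28e-10), the largest ratio of means among the 10 members.

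**Figure D3:**
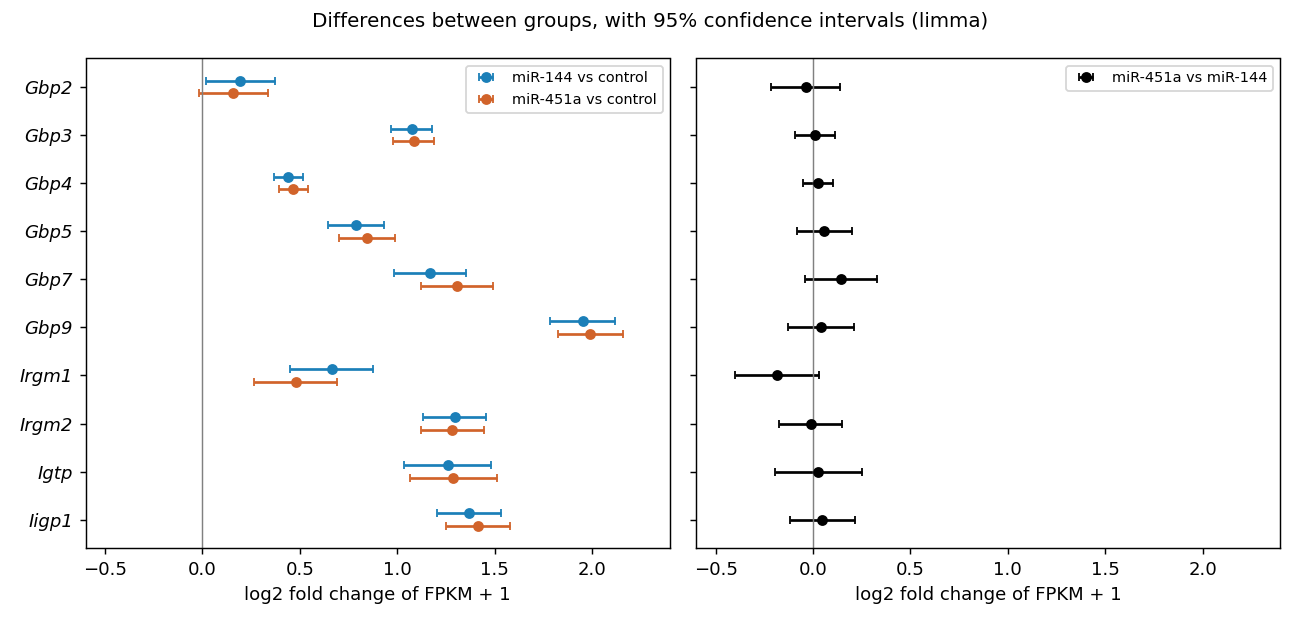
Log2 fold changes of FPKM + 1 with 95% confidence intervals (limma) for the 10 members, against control at left and between the miRNA groups at right. Against control the intervals of 9 members lie above 0 in both comparisons, Gbp2 with miR-451a reaches -0.02, and at right every interval includes 0.

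The miR-144 and miR-451a groups were then compared with each other, since both tumors carry a miRNA of the same cluster. None of the 9 tested members was called, beside 0% of all genes (limma, 0 of 11419 called, smallest adjusted p = 0.0752, and 596 genes and 0 members at an unadjusted p under 0.05). The widest intervals of the log2 difference, miR-451a minus miR-144, were -0.40 to 0.03 for Irgm1 and -0.20 to 0.25 for Igtp, and the narrowest was -0.05 to 0.10 for Gbp4. Differences within these intervals were not detectable with 5 samples a group, which does not show that the groups are alike.

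The order of the members by FPKM, which is per length, changed with the groups. In control TAMs it ran Gbp2 (18.6 ± 3.08 SD, n = 5), Irgm1 (14.98 ± 1.41), Irgm2 (9.08 ± 0.673), Igtp (8.08 ± 1.08), Gbp3, Gbp7, Gbp9, Gbp5, Iigp1 and Gbp4, and the neighbours Gbp2 and Irgm1, and Irgm2 and Igtp, overlapped between samples. In the miRNA groups Irgm1, Irgm2, Gbp2 and Igtp formed an overlapping top group with means of 20.7 to 24.4 FPKM, the mean of Gbp9 moved from place 7 to place 6, ahead of Gbp7, and Gbp9 overlapped with both Gbp3 and Gbp7 between samples. Gbp5 and Iigp1 overlapped as well. Gbp4 stayed last in all 3 groups.

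The log2 rises of the other members exceeded that of Gbp2 by 0.25 (Gbp4) to 1.76 (Gbp9) with miR-144 and by 0.31 (Gbp4) to 1.83 (Gbp9) with miR-451a. Gbp2 was singled out after its values had been seen, so these differences are given as a description, with no test.

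The members did not vary as a block among samples of the same group. After the group means were removed, Gbp5 and Gbp7 deviated together over the 15 samples (Pearson r = 0.88, Spearman 0.95). Irgm1 and Irgm2 deviated together as well (r = 0.85, Spearman 0.85). Gbp7 ran opposite to Irgm2 (r = -0.78, Spearman -0.76) and to Igtp (r = -0.77, Spearman -0.83), and without the 2 samples farthest out these were -0.81 and -0.79. Gbp2 and Gbp3 gave r = 0.80 (Spearman 0.63), and the weaker r = 0.41 without the 2 farthest samples. The pattern recurred with the sample number. The mean log2 deviation of Gbp5 and Gbp7 minus that of Irgm1, Irgm2 and Igtp was 0.26, 0.29 and 0.26 in sample 3 of control, miR-144 and miR-451a, 0.105, 0.302 and 0.252 in sample 4, and -0.28, -0.36 and -0.35 in sample 5. Samples 1 and 2 lay between -0.20 and -0.03 in all 3 groups. The 15 samples are thus not 15 independent deviations, and what a number stands for is not given in the labels. These correlations are descriptions: all genes of a sample share its library and its depth. The same difference had r = 0.20 with approximate depth and r = -0.38 with how a sample's deviations followed GC content across genes, and the part of depth, GC content or whatever the number marks was not tested.

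**Figure D4:**
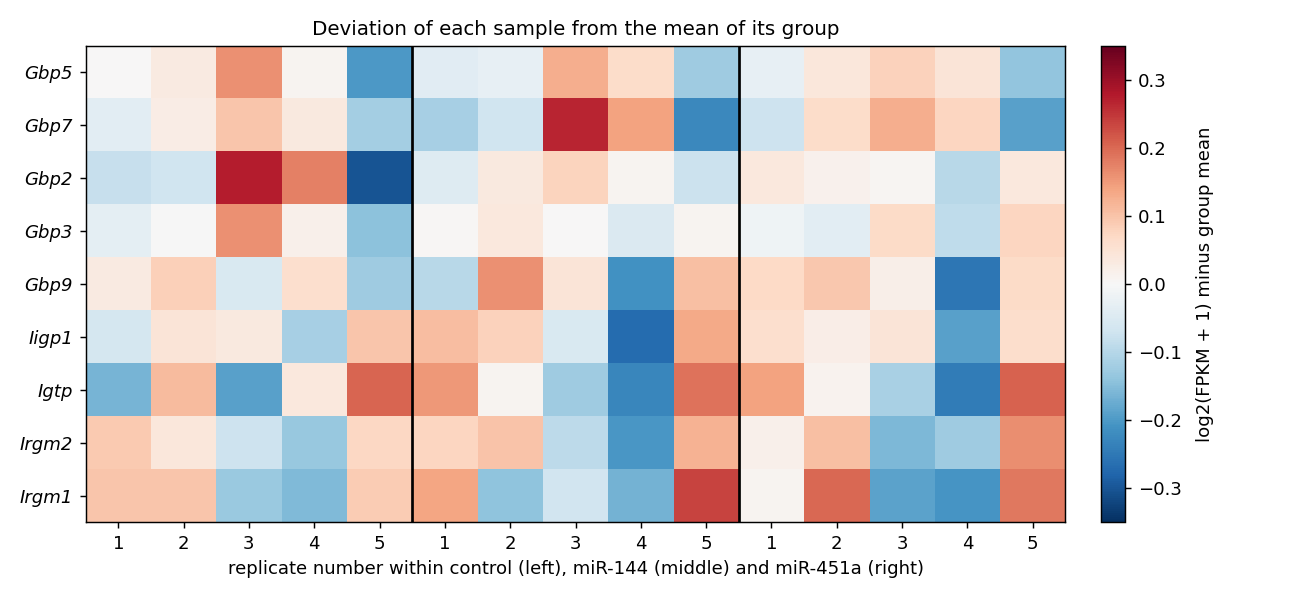
Deviation of each sample from its group mean in log2(FPKM + 1) (colour) for the 9 members that passed the filter, with samples 1 to 5 of control, miR-144 and miR-451a from left. In each group Gbp5 and Gbp7 are highest in sample 3 and lowest in sample 5, and Igtp is highest in sample 5.

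Among 6632 other genes whose mean reached 5 FPKM, those whose deviations were most like the mean deviation of the tested members over the 15 samples were Samhd1 (r = 0.92), Cxcl10 (0.88), Gm43197 (0.87), Gpr137b (0.85), Mink1 (0.84), Gm15931 (0.84), Gvin1 (0.84) and Gm4070 (0.84). The median over all these genes was 0.01. Samhd1 is a nucleotide hydrolase that limits viral DNA synthesis, and Gvin1 and Gm4070 belong to the very large inducible GTPases.

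Other genes of the GBP and IRG families were described by their counts. Of 35 listed, 23 were in the table and 14 passed the filter, and of these 11 rose with miR-144 and 12 with miR-451a, with none falling (47.1% and 48.1% of all genes higher). Their median log2 fold change was 0.79 and 0.88. The largest were Tgtp2, an effector IRG, from 2.81 to 10.98 and 11.2 FPKM (log2 1.65 and 1.67), Gm5431 (1.59 and 1.74), and 9930111J21Rik2 (1.52 and 1.54), while 9930111J21Rik1, Gm12250, Tgtp1, Gbp8, F830016B08Rik, Gm4951, Ifi47 and Gbp6 rose by 0.51 (Gbp6) to 1.31 (9930111J21Rik1) with miR-144. Gbp8 and Tgtp1 passed the filter only through the miRNA groups, with control means of 0.535 and 0.758 FPKM. The family did not rise throughout. Gvin1 and Gm4070 stayed at mean levels of 33.6 to 36.2 FPKM in all 3 groups and were not called (log2 -0.02 to 0.05), and Irgq was called with miR-451a (0.18) and not with miR-144 (0.09, adjusted p = 0.170). Median centring of the samples gave 10 and 11 called, with the sign of Irgq, Gvin1 and Gm4070 turned with miR-144 and none of the 3 called there. Rescaling to TPM turned the sign of Gvin1 and Gm4070 with miR-451a, again without a call, and quantile normalization that of Irgq with miR-144.

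Gbp11, annotated as a polymorphic pseudogene in the cluster of chromosome 5, went the other way from its neighbour Gbp4. It ranged from 0.152 to 0.530 FPKM in control TAMs, from 0 to 0.0402 with miR-144 and from 0 to 0.0550 with miR-451a, so all controls were above all miRNA samples. It fell in the fit over 29540 genes (log2 -0.43 and -0.42, adjusted p = 2.46e-05 and 2.66e-05), where 9.65% and 9.69% of genes were called lower. Of the other listed family genes under the filter, Gm12185 (log2 0.61 and 0.61) and Gm1966 (0.63 and 0.72) were called higher in that fit. There 23.1% and 24.5% of genes were called higher. The remaining ones were not called. Gbp4 shares 12.8% of its 50-base stretches with other genes, Gbp11, Gbp6 and Gm43302 among them, Gbp7 shares 12.9% and Igtp 12.3%, and Gbp9 and Gbp8 overlap Gbp4 on the same strand, so values of these copies are uncertain to the extent that reads were split between them. Irgm1 shares none of its stretches, Gbp2 2.07% and Gbp5 2.46%. Irgm2 overlaps Igtp on the same strand.

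The IFN-γ receptor pathway moved in both directions. Of 15 tested genes, 9 rose and 4 fell with miR-144, and 8 rose and 4 fell with miR-451a, where 47.1% and 48.1% of all genes were called higher and 20.1% and 20.3% lower. Median centring gave 8 higher and 5 lower with miR-144, and 8 higher and 6 lower with miR-451a. Quantile normalization gave 9 and 5, and 8 and 5, and rescaling to TPM 10 and 4 in both. Ifng, the ligand itself, was listed at 0 in all 15 samples. Ifngr1, the ligand-binding chain, rose from 20.8 to 41.5 and 46.6 FPKM (log2 0.96 and 1.12), while Ifngr2, the signalling chain, fell from 50.6 to 40.5 and 40.1 FPKM (log2 -0.31 and -0.33). Jak2, the kinase on Ifngr2, fell from 22.7 to 10.1 and 10.7 FPKM (log2 -1.10 and -1.02). Jak1 was called with miR-144 (0.08) and not with miR-451a (0.06, adjusted p = 0.0657). Its sign turned under median centring, where it was called lower with miR-451a (-0.08, limma adjusted p = 0.0316) and not called with miR-144 (0.137). Stat2, Irf9 and Irf8, transcription factors of interferon signalling, rose by 0.82, 0.72 and 0.67 with miR-144 and by 0.76, 0.74 and 0.68 with miR-451a. Irf1, a transcription factor that IFN-γ induces, stood at 20.7 FPKM in control TAMs and 23.7 and 24.2 FPKM in the miRNA groups, overlapping between groups (log2 0.22 and 0.25, adjusted p = 0.132 and 0.0896). Irf2 was not called either (-0.03 and -0.01, with the opposite sign after rescaling to TPM).

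Inhibitors of the pathway were split as well. Socs1, the feedback inhibitor of JAK kinases that IFN-γ induces, fell from 4.75 FPKM in control TAMs to 0.243 with miR-144 and 0.267 with miR-451a (log2 -2.21 and -2.18, adjusted p = 4.15e-13 and 4.20e-13). It was the largest change of the list in either direction. Ptpn2, a phosphatase, fell (-0.30 and -0.28), whereas Socs3 (0.83 and 0.92), the phosphatase Ptpn6 (1.20 and 1.20) and Pias1 (0.52 and 0.50) rose.

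Other genes that IFN-γ induces were called higher about as often as genes at large. Of 26 tested, 12 rose and 9 fell with miR-144, and 13 rose and 9 fell with miR-451a, where 47.1% and 48.1% of all genes were higher and 20.1% and 20.3% lower. Their medians were 0.17 and 0.15, close to the 0.13 and 0.14 of all genes. Fcgr1, the high-affinity IgG receptor, rose from 18.01 to 121.9 and 117.7 FPKM (log2 2.69 and 2.64), and the chemokine Cxcl10 rose from 0.371 to 7.74 and 7.39 FPKM (log2 2.67 and 2.60). Cd274, which encodes PD-L1, fell from 55.0 to 13.3 and 12.2 FPKM (log2 -1.97 and -2.09), and Serpina3g, a protease inhibitor, fell from 7.57 to 1.90 and 2.49 FPKM (log2 -1.55 and -1.30). Median centring turned the split to 9 higher and 10 lower with miR-144 and 8 higher and 11 lower with miR-451a.

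Genes induced by type I interferon, which acts through the ISRE, were higher in both miRNA groups. All 27 tested genes rose in both comparisons, where 47.1% and 48.1% of all genes were called higher, and all 27 were also called higher after rescaling to TPM, after quantile normalization and after median centring. Their medians were 1.54 and 1.495. Ifit3b and Ifit1bl1 passed the filter only through the miRNA groups, with control means of 0.7585 and 0.307 FPKM. Ifit3 rose from 6.95 to 94.7 and 89.9 FPKM (log2 3.59 and 3.51), and Ifit3b, Mx1 and Ifit2, all antiviral effectors, rose by 3.47, 2.74 and 2.68 with miR-144.

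Genes of proteins that act with GBPs and IRGs were likewise called higher about as often as genes at large. Of 21 tested partner genes, 10 rose and 7 fell with miR-144 and 10 rose and 6 fell with miR-451a (medians 0.07 and 0.04), beside 47.1% and 48.1% of all genes higher and 20.1% and 20.3% lower. Median centring gave 7 higher and 8 lower, and 5 higher and 11 lower. Nlrp3, the inflammasome sensor with which Gbp5 is linked, rose from 0.965 to 12.5 and 13.2 FPKM (log2 2.78 and 2.86). Rnf213, a large ubiquitin ligase, rose (1.23 and 1.19), and so did the signalling adaptor Tifa (0.89 and 0.88). Gabarapl1, an ATG8 protein of the autophagy machinery, fell from 104.4 to 58.3 and 56.7 FPKM (log2 -0.84 and -0.88).

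**Figure D5:**
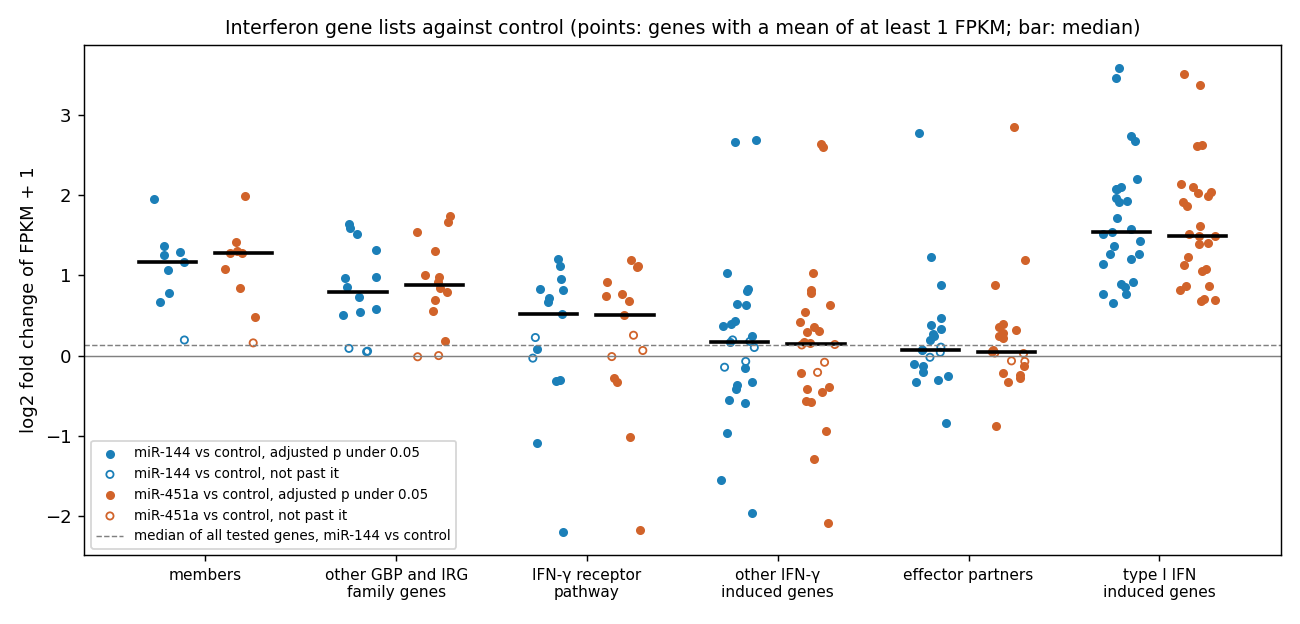
Log2 fold change against control for the tested genes of each list (points, filled where adjusted p is under 0.05, open where not; bars are medians, the dashed line the median of all tested genes with miR-144). The members and the type I list lie above 0, whereas the receptor pathway, the other IFN-γ induced genes and the effector partners spread to both sides.

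Markers of other cells moved with the groups, and their part in the members' rise was not tested. The macrophage markers, mostly Lyz2, summed to 10699 to 11639 FPKM in control TAMs and 18973 to 20566 in the miRNA groups. Of their 11 rows (10 genes, Itgam with 2), 9 rose in each comparison, the second Itgam row was not called (log2 -0.14 and 0.28, adjusted p = 0.689 and 0.420), and Cd68 fell from 1444 to 919.3 and 910.4 FPKM (log2 -0.65 and -0.67). Of the T cell markers, Cd3e and Cd3g were at 0 in all samples and 8 of 9 were under 1 FPKM, and their sum (1.37 to 1.72 in control, 5.37 to 9.51 in the miRNA groups) was mostly Cd4. All 9 NK cell markers were under 1 FPKM, with Eomes, Gzma, Gzmb and Ncr1 at 0, and their sum was 0.226 to 0.416 FPKM in control TAMs and 0.0323 to 0.210 in the miRNA groups. Of the hepatocyte and hepatoma markers 7 of 8 were listed at 0. The B cell sum, mostly Ighm, was 8.48 to 11.1 FPKM in control TAMs and 75.8 to 100.1 in the miRNA groups. The dendritic cell sum, mostly Itgax, was 84.7 to 106.3 against 3.57 to 5.25. Of its 7 markers 6 were under 1 FPKM in all samples, and these did not all follow Itgax. Mean Siglech rose from 0.0134 to 0.203 and 0.157 FPKM, and the means of Xcr1, Clec9a and Flt3 were higher too. Mean Zbtb46 was lower in both miRNA groups, and mean Ccr7 was higher with miR-144 and lower with miR-451a. The Kupffer cell sum, mostly Cd5l with Clec4f at 0, was 3.30 to 3.77 against 15.99 to 50.1. The neutrophil sum, mostly Mmp8, was 12.8 to 18.5 against 3.40 to 6.66, and the endothelial sum, mostly Vwf, was 45.7 to 50.4 against 10.7 to 13.5. Of the 2 endothelial markers tested, Vwf fell (log2 -2.46 and -2.49) and Kdr rose, from 2.80 to 3.85 and 4.07 FPKM (log2 0.35 and 0.40, adjusted p = 0.00272 and 0.000807). The approximate depth was 15500000 to 30700000 fragments a sample, with ranges that overlapped between groups.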

How the data were processed

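The authors deposited 1 table of FPKM values (fragments per kilobase of transcript, scaled to the size of the library) per gene for the 15 samples. Submitters' processing notes name FastQC 0.11.2, STAR and StringTie without roles, and the genome build and annotation are not given in the sources used here. Of the gene IDs, 99.67% were found in GENCODE M21 (GRCm38), which gave lengths, chromosomes and overlaps. Whole reads could not be recovered, so no count model was used. FPKM was taken as log2(FPKM + 1) and fitted with limma 3.58.1 (R 4.3.3) with a mean-variance trend, 3 groups in 1 fit. The 11419 genes whose mean reached 1 FPKM were tested, with Benjamini-Hochberg adjustment over all of them and a call at an adjusted p under 0.05. This mean was taken over the 15 samples. Genes such as Iigp1, Gbp8, Tgtp1, Ifit3b, Ifit1bl1, Cxcl10, Nlrp3 and Socs1 therefore passed only through the groups where they were high. Gbp4 was read from the fit over every gene above 0. The fit was tested on simulated data.

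The members and the gene lists were chosen with earlier results of these data known. Named were all members, every tested gene of the other family and receptor pathway lists (1 of the latter is not reported here), the 4 with the largest change from each other interferon or partner list, the 8 most alike in deviation, and marker genes by list. Gbp11, Gm12185, Gm1966 and Ifng, which are on these lists but were not tested at 1 FPKM, were named after their values were seen. Promoters and their coordinates are from RefSeq, GRCm38.p6. The number of samples and, for low genes, an approximate depth of 15500000 to 30700000 fragments limit the precision. Samples were grouped by their labels, none was left out, and every pair within a group differed by more than counting noise. Alternatives changed the pseudocount, filter, scaling, trend, replicate block, groups fitted and samples.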

Additional observations from a re-analysis of the deposited data

Results flagged for a closer look

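Of 30 sets of 5 samples (10 members, 3 groups), 4 had a sample whose gap to its nearest neighbour took more than 0.71 of the range of the set, and chance alone marks about 1 set in 20. All 4 were in the miR-451a group, and 3 were low values of the same sample. Gbp2 was 19.26 FPKM in miR-451a sample 4, with the nearest sample at 20.77 FPKM. Gbp9 was 8.501 FPKM in sample 4, with the nearest at 10.48 FPKM. Iigp1 was 2.339 FPKM in sample 4, with the nearest at 2.877 FPKM. Gbp4 was highest in sample 5, at 0.5872 FPKM, with the nearest at 0.4794 FPKM. Sample 4 of this group had the largest approximate depth of the 15 samples, 30700000 fragments, whose part in these values was not tested. Without it, 8 of 9 members were called with miR-451a, as with it.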

How the results depend on the processing

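The count of members called stayed at 8 or 9 of 9 in both comparisons with control under the other pseudocount, the scalings, no trend, the fit of 2 groups, the block and each sample left out, and no member changed sign. With a mean of at least 5 FPKM, 7 and 6 of 7 tested members were called, 7 of 10 other family genes with miR-144, and 4776 and 4821 of 6639 genes, where fewer genes were tested. Without a filter 9 of 10 members were called in both. The members' median log2 fold change with miR-144 moved from 1.17 to 1.35 with a pseudocount of 0.1, to 1.03 with median centring, to 1.02 with quantile normalization and to 1.40 with TPM. With miR-451a it moved from 1.28 to 1.14 with median centring, 1.15 with quantile normalization and 1.43 with TPM, by construction of these scales. Gbp2 was the member whose call depended on the setting: its log2 change ran from 0.06 to 0.27 (adjusted p = 0.00547 to 0.575) with miR-144 and from 0.01 to 0.25 (adjusted p = 0.0129 to 0.905) with miR-451a. It passed with miR-144 at 5 FPKM (adjusted p = 0.0476), with TPM (0.0121) and without control sample 3 or 4, and with miR-451a with TPM (0.0203) and without the same controls. Leaving out 1 sample gave 0 to 2 genes called between the miRNA groups, none of them a member. Deviations of same-numbered samples over all genes had r = -0.13 to 0.11 between control and miR-144, 0.07 to 0.26 between control and miR-451a and -0.15 to 0.24 between the miRNA groups. These were over 0.1 for 1, 3 and 4 of 5 numbers, and 0, 3 and 1 of 5 samples were best with their own number, so the numbers were not taken as a pairing of all samples, although Gbp5, Gbp7 and the IRGs recurred by number. With the replicate block, 7711 and 7859 genes were called against 7668 and 7804, and Gbp2 with miR-144 passed (0.0473). Depth limits Gbp4 in control TAMs.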
